A study of Homo sapiens with 6 samples.

Results

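The 10 genes described here encode factors that switch on the replication-dependent histone genes and process their transcripts. They were chosen by symbol: NPAT, CASP8AP2, SLBP, ERI1, LSM10, LSM11, ZNF473, CPSF2, CPSF3 and SYMPK. All 10 were found, each on 1 row of the array that names it alone, among 18417 genes measured. The cells were YCC3, an established line from human gastric cancer, which received CTNNB1 siRNA (3 samples, 1 array each) or a non-targeting control siRNA (3 samples) and gave RNA 48 hours after transfection. CTNNB1 encodes beta-catenin, a junction protein and the co-activator of Wnt signalling, and an siRNA is a short RNA duplex that guides the cutting of mRNAs it pairs with. Both groups were the same cell line, each received an siRNA, and RNA was measured at 1 time. The titles call the samples biological replicates. The labels state neither the make-up of the siRNA (a single duplex or a mix) nor whether each replicate was a culture transfected on its own, and p-values cover the spread among these 6 samples.

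Histone mRNAs of dividing cells are made in S phase and, unlike other mRNAs, end in a conserved stem-loop and not in a poly(A) tail. NPAT, a substrate of cyclin E with CDK2, activates their genes in the histone locus body. SLBP binds the stem-loop, the U7 ribonucleoprotein binds downstream of it, and a cleavage complex that is shared in part with the polyadenylation machinery cuts between them. The arrays report total signal per gene and cannot tell a transcript cut at the stem-loop from one that was polyadenylated.

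The values are log2 signals from RMA, which corrects background and gives all arrays like distributions, so a shift common to most transcripts would be removed. A gene is said to have risen or fallen only where its adjusted p from limma, a linear model fitted to all 18417 genes, was under 0.05. The targeted transcript measured 10.94, 11.06 and 11.20 on the CTNNB1 siRNA arrays, against 11.80, 11.81 and 11.90 on the control siRNA arrays. CTNNB1 fell by 0.77 ± 0.10 log2 units (SE, n = 3 each; limma, adjusted p = 0.00267). The 6 epithelial markers measured lay between 9.002 and 13.7 with CTNNB1 siRNA, against 8.86 and 13.7 with control siRNA. The 4 leukocyte markers lay between 2.61 and 5.91 with CTNNB1 siRNA, against 2.36 and 5.62 with control siRNA. The 3 endothelial markers lay between 3.89 and 4.88 with CTNNB1 siRNA, against 3.98 and 4.77 with control siRNA, and the 4 fibroblast markers between 3.02 and 6.81 with CTNNB1 siRNA, against 2.93 and 6.71 with control siRNA. Of these markers 1 was called, the epithelial tight junction gene CLDN4, which rose by 0.61 ± 0.10 log2 units (SE; limma, adjusted p = 0.00763; 0.0705 by the per-gene test without moderation). Of all genes, 382 rose and 488 fell, and after cyclic loess scaling 488 rose and 379 fell, which is 43.9% rises as deposited and 56.3% with loess. In the same arrays all 9 interferon-stimulated genes of a short list rose, with a median change of 3.32 log2 units. The 4 with the smallest p were IFIT1 (4.27 ± 0.11, SE), RSAD2 (4.28 ± 0.13), IFI44L (3.997 ± 0.127) and OAS2 (3.98 ± 0.14), and their part in the results below was not tested.

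Promoters are shown for 4 of the factors. NPAT, CPSF2 and CPSF3 each have a neighbour that starts within 1 kb on the other strand, and CASP8AP2 and CPSF3 hold an E2F-type motif, E2F being the factor family that switches on S phase genes. Each window runs from 250 bases before to 50 bases after the start and comes from RefSeq (GRCh38.p14), which held 8 of the 10 factors. The motifs searched, on both strands, were TTTGGCGC and TTTCGCGC (E2F type), CCAAT, and GGGCGG (Sp1 type). Capitals mark a match in either orientation, and no 2 matches overlap in these windows.
NPAT, chr11:108222589-108222888, minus strand: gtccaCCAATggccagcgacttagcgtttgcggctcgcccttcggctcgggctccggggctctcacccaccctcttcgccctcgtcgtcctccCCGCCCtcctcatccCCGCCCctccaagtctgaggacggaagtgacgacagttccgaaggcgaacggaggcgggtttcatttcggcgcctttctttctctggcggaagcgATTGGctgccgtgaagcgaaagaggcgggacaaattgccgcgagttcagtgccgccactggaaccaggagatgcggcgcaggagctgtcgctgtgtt
CASP8AP2, chr6:89829630-89829929, plus strand: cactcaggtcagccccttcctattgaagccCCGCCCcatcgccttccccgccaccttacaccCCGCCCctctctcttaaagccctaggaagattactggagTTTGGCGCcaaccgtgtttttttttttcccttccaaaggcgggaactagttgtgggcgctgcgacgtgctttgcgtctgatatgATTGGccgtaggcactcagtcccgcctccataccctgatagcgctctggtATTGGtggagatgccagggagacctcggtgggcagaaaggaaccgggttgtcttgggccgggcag
CPSF2, chr14:92121719-92122018, plus strand: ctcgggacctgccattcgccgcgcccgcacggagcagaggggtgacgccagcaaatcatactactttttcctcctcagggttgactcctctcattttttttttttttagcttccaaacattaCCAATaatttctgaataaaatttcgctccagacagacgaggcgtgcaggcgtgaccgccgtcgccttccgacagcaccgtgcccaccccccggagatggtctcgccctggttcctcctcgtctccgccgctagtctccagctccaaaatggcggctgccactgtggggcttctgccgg
CPSF3, chr2:9423404-9423703, plus strand: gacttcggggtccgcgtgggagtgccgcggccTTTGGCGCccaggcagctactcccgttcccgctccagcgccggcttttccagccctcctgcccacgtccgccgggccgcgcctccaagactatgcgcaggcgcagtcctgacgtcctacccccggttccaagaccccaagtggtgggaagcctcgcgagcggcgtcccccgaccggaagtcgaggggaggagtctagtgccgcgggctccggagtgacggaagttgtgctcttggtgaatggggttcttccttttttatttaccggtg
TTTGGCGC was found in 2 of the 8 windows, CASP8AP2 and CPSF3, and in 0.652% of 35116 RefSeq promoters of this length. TTTCGCGC was found in none of the 8 and in 0.515% of all promoters. CCAAT was found in 4 of the 8 and in 34.6% of all, and GGGCGG in 5 of the 8 and in 45.0% of all. A match describes these letters and does not show that a factor binds there.

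None of the 10 factors rose or fell. Of all genes 4.72% passed the test, 2.07% higher and 2.65% lower. Without adjustment 3 of the 10 had a p under 0.05, all with lower signal after CTNNB1 siRNA, against 20.3% of all genes in either direction. The groups did not overlap for 3 factors, all lower, against 15.2% of all genes lower and 10.8% higher. Changes were negative for 6 of 10 factors and 48.8% of all genes, and the median change was -0.11 for the factors and 0.01 for all genes. After cyclic loess scaling the median was -0.06 for the factors and 0.01 for all genes. All 10 factors were brighter than the median gene, and their changes were not compared with those of genes of like brightness. The adjusted p ran from 0.0706 for CPSF2 to 0.849 for NPAT. The lowest changes were those of CPSF2 (-0.34), CPSF3 (-0.30), LSM10 (-0.27), ZNF473 (-0.17) and CASP8AP2 (-0.16), and the other 5 lay between -0.06 and 0.08.

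**Figure D1:**
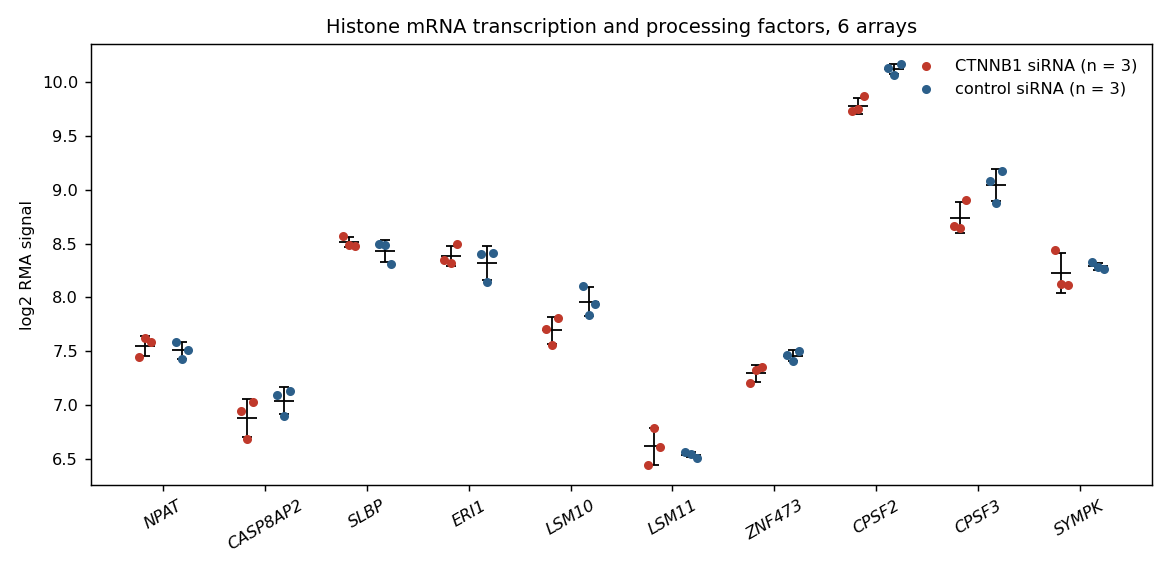
Log2 RMA signal of each factor (y axis) on the CTNNB1 siRNA arrays (red) and the control siRNA arrays (blue). Points are single arrays, and bars are the mean and SD of 3 arrays. CPSF2, LSM10 and ZNF473 are the factors whose groups do not overlap.

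Among the factors that act at the histone genes, NPAT is the co-activator that gathers at the histone gene clusters. NPAT measured 7.45, 7.62 and 7.59 on the CTNNB1 siRNA arrays, against 7.59, 7.43 and 7.51 on the control siRNA arrays. The 2 groups overlap across nearly their whole range. The change was 0.04 ± 0.10 log2 units (SE, n = 3 each; limma, adjusted p = 0.849), with a 95% confidence interval of -0.18 to 0.26. In linear terms that interval spans 11.5% less to 20.03% more signal.

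CASP8AP2, also called FLASH, is found with NPAT in the histone locus body and binds LSM11 of the U7 particle. It measured 6.94, 6.69 and 7.02 with CTNNB1 siRNA, against 7.10, 6.90 and 7.13 with control siRNA. The lowest value is CTNNB1 siRNA replicate 2, and the remaining arrays overlap. The change was -0.16 ± 0.12 log2 units (SE; limma, adjusted p = 0.508; 95% interval -0.42 to 0.11). NPAT minus CASP8AP2, within each array, was 0.67 ± 0.23 with CTNNB1 siRNA and 0.47 ± 0.08 with control siRNA (SD, n = 3 each; exact permutation test, two-sided, p = 0.2, and 0.3 over the 9 pairs of genes compared in this way).

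SLBP, the stem-loop binding protein, stays with histone mRNA from processing to translation. SLBP measured 8.57, 8.49 and 8.48 with CTNNB1 siRNA, against 8.50, 8.49 and 8.31 with control siRNA. Control replicate 3 is the low array, and the other 5 lie close together. The change was 0.08 ± 0.10 log2 units (SE; limma, adjusted p = 0.703), and the 95% interval of -0.14 to 0.30 spans 8.999% less to 22.9% more signal. Without control replicate 3 the change was 0.02.

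ERI1 is an exonuclease that binds the same stem-loop beside SLBP and trims the end of histone mRNA. ERI1 measured 8.35, 8.32 and 8.49 with CTNNB1 siRNA, against 8.41, 8.14 and 8.41 with control siRNA. The groups overlap, and control replicate 2 is the low array. The change was 0.07 ± 0.11 log2 units (SE; limma, adjusted p = 0.778), and without that array it was -0.02. SLBP minus ERI1, taken within each array, was 0.13 ± 0.12 with CTNNB1 siRNA and 0.11 ± 0.22 with control siRNA (SD, n = 3 each; exact permutation test, two-sided, p = 1.0, also after adjustment over 9 pairs).

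Of the U7 particle, LSM10 and LSM11 take the places that SmD1 and SmD2 hold in the spliceosomal rings. LSM10 measured 7.71, 7.56 and 7.81 with CTNNB1 siRNA, against 8.11, 7.84 and 7.94 with control siRNA. All 3 CTNNB1 siRNA arrays are below all 3 control arrays, by a narrow margin between CTNNB1 siRNA replicate 3 and control replicate 2. The change was -0.27 ± 0.11 log2 units (SE; limma, unadjusted p = 0.0369, adjusted p = 0.210), or 16.9% less signal with a 95% interval of 1.35% to 29.9%.

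LSM11, whose long N-terminal part holds the site for CASP8AP2, measured 6.44, 6.79 and 6.61 with CTNNB1 siRNA, against 6.56, 6.55 and 6.51 with control siRNA. The control arrays are tight and the CTNNB1 siRNA arrays spread on both sides of them. The change was 0.08 ± 0.11 log2 units (SE; limma, adjusted p = 0.754), and -0.01 without CTNNB1 siRNA replicate 2. LSM10 minus LSM11, within each array, was 1.08 ± 0.27 with CTNNB1 siRNA and 1.42 ± 0.13 with control siRNA (SD, n = 3 each). The difference between groups was -0.34 log2 units, with no overlap and an exact permutation p of 0.1, the smallest that 3 arrays against 3 can give (0.18 after Benjamini-Hochberg adjustment over 9 pairs, which were chosen after the values were seen).

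ZNF473, a zinc-finger protein that associates with the U7 particle, measured 7.20, 7.32 and 7.36 with CTNNB1 siRNA, against 7.46, 7.41 and 7.51 with control siRNA. The groups do not overlap, and the gap between them is small. The change was -0.17 ± 0.09 log2 units (SE; limma, adjusted p = 0.367), with a 95% interval of -0.38 to 0.04.

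**Figure D2:**
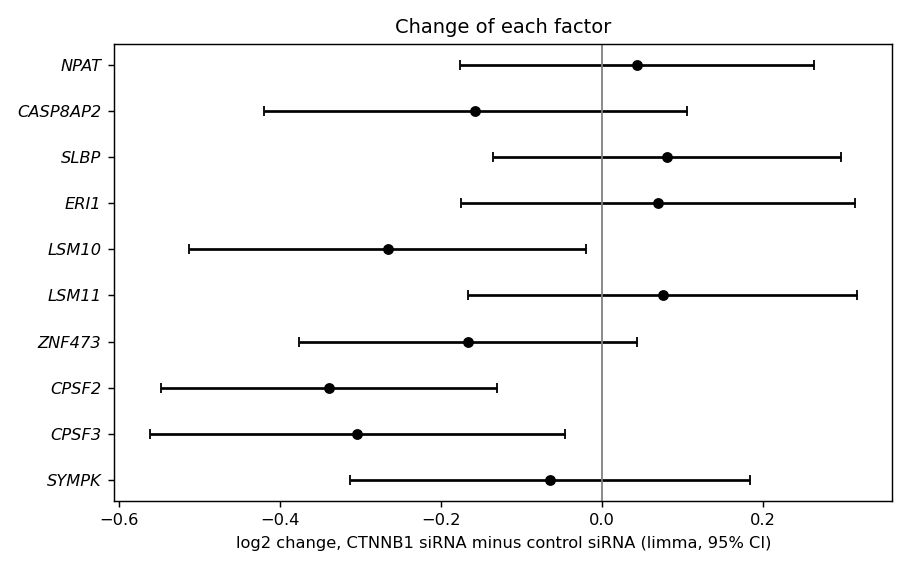
Log2 change of each factor (x axis), CTNNB1 siRNA minus control siRNA, from limma. Bars are 95% confidence intervals, not adjusted for the number of genes, and the grey line marks 0. Of the 10 intervals 7 hold 0, and those of LSM10, CPSF2 and CPSF3 lie below it.

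CPSF2 and CPSF3 of the cleavage complex had the 2 lowest changes of the 10. CPSF2, the non-catalytic partner of the nuclease, measured 9.73, 9.75 and 9.87 with CTNNB1 siRNA, against 10.13, 10.07 and 10.17 with control siRNA. The groups stand apart by more than the spread within either. The change was -0.34 ± 0.09 log2 units (SE, n = 3 each; limma, unadjusted p = 0.00464, adjusted p = 0.0706), or 20.97% less signal with a 95% interval of 8.64% to 31.6%. It missed the threshold as set, and passed it when the dimmest 25% of genes were left out (adjusted p = 0.0375) or when the variance was fitted with a trend and robustly (adjusted p = 0.0146). Under cyclic loess the change shrank to -0.26 (limma, adjusted p = 0.118), and by the per-gene test without moderation the adjusted p was 0.102. Across all settings tried the adjusted p ran from 0.0146 to 0.217, the highest without control replicate 1.

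CPSF3 is the nuclease that cuts both histone and polyadenylated transcripts. CPSF3 measured 8.67, 8.65 and 8.91 with CTNNB1 siRNA, against 9.08, 8.88 and 9.17 with control siRNA. Control replicate 2 lies below CTNNB1 siRNA replicate 3, so the groups overlap by that 1 array. The change was -0.30 ± 0.12 log2 units (SE; limma, unadjusted p = 0.0254, adjusted p = 0.172), with a 95% interval of -0.56 to -0.05. CPSF2 minus CPSF3, within each array, was 1.04 ± 0.07 with CTNNB1 siRNA and 1.08 ± 0.10 with control siRNA (SD, n = 3 each; exact permutation test, two-sided, p = 0.7, and 0.788 over the 9 pairs).

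SYMPK encodes symplekin, the scaffold that holds CPSF2 and CPSF3. SYMPK measured 8.44, 8.12 and 8.12 with CTNNB1 siRNA, against 8.33, 8.29 and 8.26 with control siRNA. CTNNB1 siRNA replicate 1 is the highest of all 6 arrays and the other 2 CTNNB1 siRNA arrays are the lowest. The change was -0.06 ± 0.11 log2 units (SE; limma, adjusted p = 0.798). CPSF2 minus SYMPK was 1.56 ± 0.24 with CTNNB1 siRNA and 1.83 ± 0.06 with control siRNA (SD, n = 3 each), with no overlap (exact permutation test, p = 0.1, and 0.18 over the 9 pairs). CPSF3 minus SYMPK was 0.51 ± 0.28 with CTNNB1 siRNA and 0.75 ± 0.16 with control siRNA (SD, n = 3 each; exact permutation test, p = 0.3, and 0.386 over the 9 pairs).

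Several factors shared the order of the arrays within a group. Control replicate 2 was the lowest control array for 7 of 10 factors, namely NPAT, CASP8AP2, LSM10, ZNF473, ERI1, CPSF2 and CPSF3, and for 34.1% of all genes. CTNNB1 siRNA replicate 3 was the highest array of its group for 6 of 10, against 31.9% of all genes. These counts were the largest of any array, highest or lowest. Control replicates 1 and 3 were each the highest control array for 5 of 10, against 25.3% and 40.7% of all genes. CTNNB1 siRNA replicates 1 and 2 were each the lowest of their group for 4 of 10, against 28.7% and 35.0%. SLBP and SYMPK had another order, highest in replicate 1 and lowest in replicate 3 of each group. Within groups the SD of a factor ran from 0.03 to 0.19 log2 units, and 8 of the 10 varied less than the median gene. All 10 were brighter than the median gene, from percentile 50.4 (LSM11) to 95.5 (CPSF2). Their SD was not compared with that of genes of like brightness.

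The 3 genes whose values were most like those of SLBP over the 6 arrays were SHISA4 (Pearson r = 0.995), CNIH2 (r = 0.994) and RBM4B (r = 0.990). They were picked as the highest of 18417 genes, of which 49 had an r above 0.95 with SLBP, and an r over 6 arrays is imprecise.

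Neighbours were looked for only at the 8 factors with a promoter window, so not at ZNF473 and ERI1. Of the 3 factors found with a neighbour starting within 1 kb on the other strand, NPAT differed most from it. The nearest starts of NPAT and of ATM, which encodes a DNA damage kinase, lie 429 bases apart, and their promoter windows share 72 bases with 1 CCAAT match, the first of those capitalised above for NPAT. ATM measured 5.66, 5.59 and 5.92 with CTNNB1 siRNA, against 6.35, 6.32 and 6.35 with control siRNA. ATM fell by 0.62 ± 0.11 log2 units (SE; limma, adjusted p = 0.0125), while NPAT measured 0.04 ± 0.10. NPAT minus ATM, within each array, was 1.83 ± 0.19 with CTNNB1 siRNA and 1.17 ± 0.06 with control siRNA (SD, n = 3 each), with no overlap (exact permutation test, p = 0.1, and 0.18 over the 9 pairs). That p is the smallest that 3 arrays against 3 can give. The pair was chosen after the values were seen, and its difference restates the fall of ATM. The ATM signal was low: the medians of CTNNB1 siRNA replicates 1, 2 and 3 were 5.94, 5.95 and 5.91 over all rows. Over the genes analysed those medians were 6.57, 6.56 and 6.53, and ATM lay below them on each of these arrays. ATM did not pass when CTNNB1 siRNA replicate 1 (adjusted p = 0.0668) or control replicate 1 (0.0621) was left out. It also did not pass by the per-gene test without moderation (adjusted p = 0.109).

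CPSF2 starts 263 bases from NDUFB1, a subunit gene of respiratory complex I. NDUFB1 had a change of 0.08 ± 0.13 log2 units (SE; limma, adjusted p = 0.785), against -0.34 ± 0.09 for CPSF2. CPSF2 minus NDUFB1 was 2.16 ± 0.16 with CTNNB1 siRNA and 2.58 ± 0.19 with control siRNA (SD, n = 3 each), also with no overlap (exact permutation test, p = 0.1, and 0.18 over the 9 pairs). CPSF3 starts 85 bases from the nearest start of ITGB1BP1, an integrin-binding adaptor gene. ITGB1BP1 had a change of -0.15 ± 0.11 (adjusted p = 0.484), against -0.30 ± 0.12 for CPSF3. CPSF3 minus ITGB1BP1 was 0.75 ± 0.08 with CTNNB1 siRNA and 0.91 ± 0.02 with control siRNA (SD, n = 3 each), again with no overlap (exact permutation test, p = 0.1, and 0.18 over the 9 pairs).

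**Figure D3:**
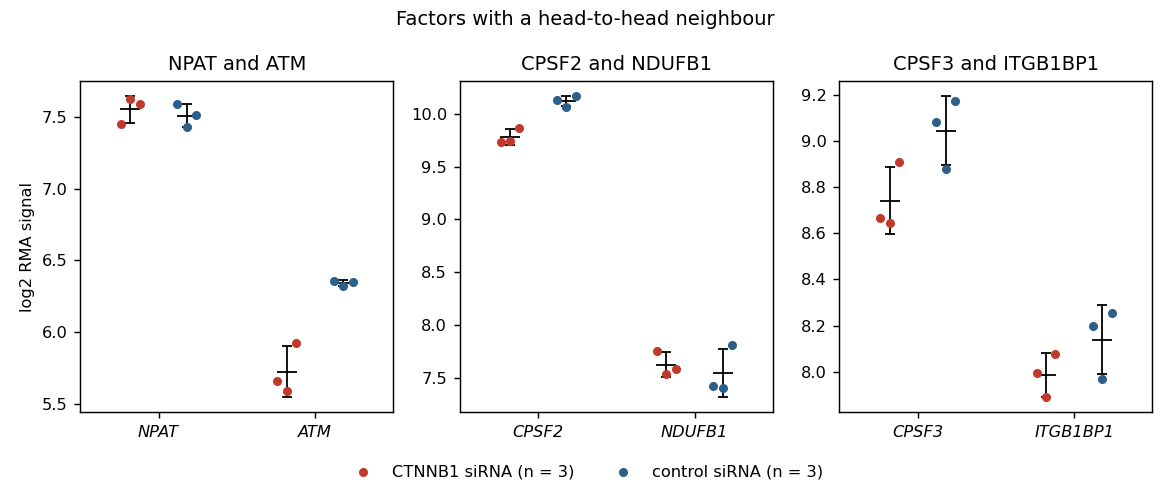
Log2 RMA signal (y axis, a scale of its own in each panel) of NPAT, CPSF2 and CPSF3 beside the gene that starts within 1 kb on the other strand. Points are arrays, CTNNB1 siRNA in red and control siRNA in blue, and bars are the mean and SD of 3 arrays. ATM and CPSF2 are the genes whose groups do not overlap.

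The wider machinery was read from lists of 60 further genes, of which 55 were measured: 1 rose, 2 fell and 52 did not pass. Of 11 measured genes listed under histone transcription and the histone locus body 1 rose and 1 fell. CCNE2, which encodes a cyclin E that with CDK2 phosphorylates NPAT, measured 8.35, 8.27 and 8.49 with CTNNB1 siRNA, against 7.61, 7.60 and 7.92 with control siRNA. CCNE2 rose by 0.66 ± 0.12 log2 units (SE; limma, adjusted p = 0.0125), and did not pass when control replicate 1 (adjusted p = 0.0680) or CTNNB1 siRNA replicate 1 (0.0601) was left out. It also did not pass by the per-gene test without moderation (adjusted p = 0.126). The other called gene of that list is ATM, described above as the neighbour of NPAT, and the list's median was 0.09.

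None of the 15 other cleavage and polyadenylation factors passed. Their median change was -0.16, with 13 of 15 negative and 5 of 15 lower without overlap, against 15.2% of all genes. NUDT21, a subunit of cleavage factor I, had the smallest p, at -0.29 ± 0.10 log2 units (SE; limma, adjusted p = 0.140). INTS9, the Integrator relative of CPSF2 that acts on small nuclear RNAs, measured -0.09 ± 0.12 (adjusted p = 0.731), and neither of the 2 Integrator relatives passed.

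No gene passed among the 5 Sm proteins that U7 shares with the spliceosome, where SNRPB measured -0.17 ± 0.09 log2 units (SE; limma, adjusted p = 0.352). SNRPD2, which encodes SmD2, measured -0.23 ± 0.12 (adjusted p = 0.306), and SNRPD1 did not pass either. Of 7 cap-binding and elongation genes none passed, and NCBP1, the large cap-binding subunit, measured -0.37 ± 0.11 (adjusted p = 0.0889). Of 10 genes of histone mRNA translation and decay XRN2, a nuclear exonuclease, fell by 0.48 ± 0.12 (adjusted p = 0.0468) and 9 did not pass. The XRN2 call was lost without any 1 of the 6 arrays (adjusted p 0.0580 to 0.157) and under cyclic loess (0.0515). It was also lost by the per-gene test without moderation (adjusted p = 0.182). Of 3 measured genes that set the turnover of SLBP protein none passed, and CCNF, the ubiquitin ligase subunit that targets it, measured -0.03 ± 0.10 (adjusted p = 0.902).

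**Figure D4:**
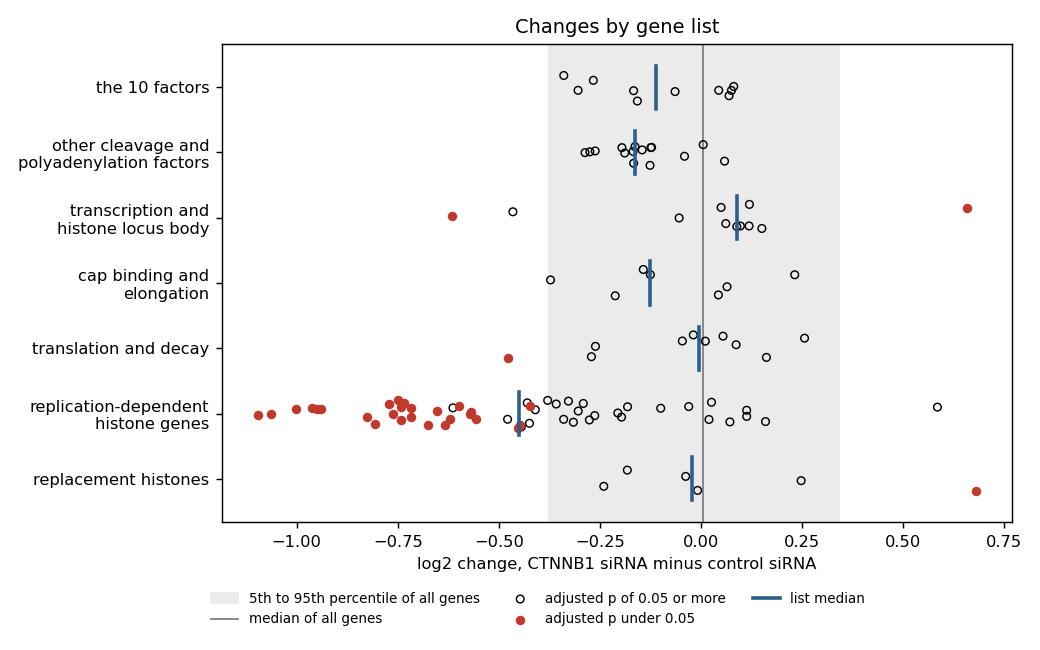
Log2 change (x axis), CTNNB1 siRNA minus control siRNA, of the measured genes of each list. Filled points had an adjusted p under 0.05, blue lines are list medians, and the grey band holds the 5th to 95th percentile of all genes, -0.38 to 0.34. All 10 factors lie inside the band, and 27 replication-dependent histone genes are filled.

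The substrates of these factors are the mRNAs of the replication-dependent histone genes. Of 54 measured replication-dependent histone genes 27 fell, none rose and 27 did not pass, where 2.65% of all genes fell. Their median change was -0.45 log2 units, with a range of -1.10 to 0.58, and the difference between these genes and the 10 factors was not tested. In bulk RNA, fewer cells in S phase and less histone mRNA per cell cannot be told apart. Their near-identical copies can share probe signal, so the 27 are not independent, and between 18 and 25 fell with 1 array left out. The 4 with the smallest p were H3C2 (-1.002 ± 0.097, SE), H2AC4 (-1.10 ± 0.13), H2AC13 (-0.95 ± 0.12) and H2AC8 (-0.74 ± 0.09), all with limma's adjusted p of 0.00209 or less. The highest change was that of H2BC21, named after its values were seen, at 0.58 ± 0.16 (adjusted p = 0.0682). With 1 array left out its adjusted p ran from 0.0591 to 0.211. Across the other settings with all arrays it ran from 0.0204 to 0.285, and H2BC21 passed, as higher, under the replicate block, cyclic loess, a second quantile normalization, without the dimmest 25% of genes and with a trended and robust variance.

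Of 6 measured replacement histone genes, whose mRNAs carry a poly(A) tail and need none of the U7-specific factors, 1 rose and 5 did not pass. Their median change was -0.02. H1-10, a linker histone, measured 9.69, 9.47 and 9.35 with CTNNB1 siRNA, against 8.89, 8.91 and 8.67 with control siRNA. H1-10 rose by 0.68 ± 0.12 log2 units (SE; limma, adjusted p = 0.0116), and did not pass once CTNNB1 siRNA replicate 1 was left out (adjusted p = 0.0575). It also did not pass by the per-gene test without moderation (adjusted p = 0.126).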

How the data were processed

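RNA of 6 YCC3 samples was hybridised to Affymetrix Human Gene 1.0 ST arrays, 1 per sample. The authors deposited log2 signals made with RMA, and the submitters' processing notes also name Affymetrix Expression Console 1.1. That they are log2 was judged from their range. Which genome build and array annotation were used is not given in the sources used here. Background calls per probe were not used here. Of 33297 rows, 19460 had exactly 1 gene symbol, and the brightest row per gene left 18417 genes. No sample column was left out.

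Groups were compared two-sided by lmFit and eBayes of limma 3.58.1 (R 4.3.3) with Benjamini-Hochberg adjustment over all 18417 genes. Pairs of genes were compared by exact permutation tests on within-array differences (scipy 1.17.1). The fit was tested on simulated data with independent noise for each gene and array and no effect shared by genes on an array. Such data do not show how well the calls on these arrays hold. The number of arrays limits the precision. The 10 genes and all lists were chosen with earlier results of these data known. Named genes are the 10, CTNNB1, ATM, up to 4 called members of each list by p (or, with none called, the smallest p), and the 3 most like SLBP. NDUFB1, ITGB1BP1, SNRPD1, H2BC21 and the 9 pairs were chosen after values were seen. Listed genes without a row of their own were not analysed here, nor were protein sequences.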

Additional observations from a re-analysis of the deposited data

How the results depend on the processing

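Of 140 changes of the 10 factors under 14 other settings, 136 kept their direction and side of the threshold. CPSF2 passed in 2 of the others, and in the remaining 2 a factor near 0 changed sign: ERI1, which measured -0.0206 to 0.115 with 1 array left out (lowest without control replicate 2), and LSM11, which measured -0.0123 to 0.161 (lowest without CTNNB1 siRNA replicate 2). No factor rose in any setting, and 1 fell, CPSF2, without the dimmest 25% of genes, with a trended and robust variance, or at a threshold of 0.10. The median change of the factors ran from -0.15 to -0.04 with other scalings or 1 array left out.

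Over all genes, 556 rose and 927 fell without the dimmest 25%. With a trended and robust variance 586 rose and 1036 fell, and at a threshold of 0.10 660 rose and 1008 fell. Without moderation 75 rose and 36 fell, CTNNB1 had a change of -0.77 with an adjusted p of 0.0660, and 2 replication-dependent histone genes fell. With 1 array left out 183 to 364 genes rose and 95 to 513 fell. The cause of these differences was not tested.

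With the replicate number as a block (replicate block) 470 genes rose, 707 fell, and no factor passed. Deviations of same-numbered arrays correlated at -0.02, 0.33 and 0.22, and CTNNB1 siRNA replicate 1 correlated best with control replicate 3, at 0.08. CTNNB1 siRNA replicate 2 correlated with control replicate 3 at -0.27, and CTNNB1 siRNA replicate 3 with control replicate 2 at -0.29. The labels do not say that a number marks a shared culture or day, so the numbers were not taken as pairs in the main fit. Whether they mark pairs was not tested.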
